A study of Homo sapiens with 26 samples.

Results

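Repression of the P1 promoter of HNF4A was examined in AsPC-1, an established human pancreatic ductal adenocarcinoma line, by comparing libraries with a P1 guide against libraries with a control guide. The 6 libraries concerned, of 26 in the series and 14 from AsPC-1, were sgP1E replicates 1 and 2, sgP1J replicates 1 and 2, and sgNC replicates 1 and 2. A gene was counted as a member when sgP1 as a whole differed from sgNC past an adjusted p of 0.05 and when sgP1E and sgP1J each lay on the same side of sgNC. Of 16992 genes tested, 45 met this rule. When each guide alone had to pass the same threshold in the same direction, 146 genes did.

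The series measured poly(A) RNA in 3 pancreatic cancer lines after HNF4A was manipulated. In AsPC-1 (ASPC1 in the labels), CRISPR interference was used, in which a catalytically dead Cas9 blocks transcription where its guide RNA binds. It was directed at P1 (guides sgP1E and sgP1J), at P2 (sgP2D and sgP2G) or at both (sgDual2 and sgDual3), with 2 libraries a guide, and sgNC was the negative control guide with 2 libraries. No drug treatment is given for AsPC-1. In Panc10.05 and BxPC3, the P1 isoform P1-a2 was induced with doxycycline, at 25 ng/mL and 500 ng/mL, beside a negative control (NC) at the same dose in each line, 2 libraries a group. The control was labelled GFP-NC in Panc10.05 and EV-NC (empty vector) in BxPC3. Libraries with the P2 isoform P2-a8, induced at a lower dose than P1-a2 in Panc10.05 and at the same dose in BxPC3, entered the same fits. All AsPC-1 values come from a single line, the guide sequences were not analysed here, and the labels do not say whether replicates were separate cultures. The p-values below therefore measure the spread between libraries, which may be technical. All AsPC-1 libraries were fitted together. For sgP1 as a whole, the guides of a target counted as its replicates, so differences between guides of sgP1, sgP2 and sgDual enter that spread. In the test of each guide alone, only libraries of the same guide counted as replicates.

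HNF4A is a nuclear receptor of the liver, gut, kidney and pancreas that binds DNA as a homodimer and activates genes of epithelial differentiation and of lipid and sugar metabolism. It is transcribed from 2 promoters, P2 upstream and P1 downstream. The P1 isoforms carry an N-terminal activation domain that the P2 isoforms lack, and adult liver uses mostly P1 while both are active in the intestine. The RefSeq promoter table (GRCh38.p14) holds both starts, each shown here as the 250 bases before the start on the plus strand, because P1 is the promoter the sgP1 guides target and P2 the one it was compared with. The P1 window is chr20:44400989-44401238 and the P2 window is chr20:44355449-44355698.
HNF4A P1: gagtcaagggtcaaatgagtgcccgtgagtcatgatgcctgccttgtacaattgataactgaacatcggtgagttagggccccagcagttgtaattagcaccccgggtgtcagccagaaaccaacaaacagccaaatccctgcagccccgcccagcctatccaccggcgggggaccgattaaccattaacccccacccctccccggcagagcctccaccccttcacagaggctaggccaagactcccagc
HNF4A P2: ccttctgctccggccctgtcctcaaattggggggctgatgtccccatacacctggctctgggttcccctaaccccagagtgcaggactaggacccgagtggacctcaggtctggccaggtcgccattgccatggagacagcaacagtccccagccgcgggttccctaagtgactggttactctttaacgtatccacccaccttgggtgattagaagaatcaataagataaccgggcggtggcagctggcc

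The targeted gene was lower in every sgP1 library, without passing the test. HNF4A (ENSG00000101076, chr20:44355700-44434596, plus strand) stood at 205.7 and 219.8 CPM (counts scaled to a common library size, after TMM normalization) with sgNC, at 144.2 and 145.5 with sgP1E and at 118.4 and 108.9 with sgP1J. The groups did not overlap, and both sgP1J libraries lay below both sgP1E libraries. The mean was 129 ± 18.4 CPM (SD, n = 4) with sgP1 against 213 ± 9.95 (SD, n = 2) with sgNC, or 60.8% of it. The log2 fold change was -0.72 (SE 0.36), with an adjusted p of 0.615 by edgeR's quasi-likelihood test with Benjamini-Hochberg adjustment. By guide it was -0.55 (adjusted p = 0.476) for sgP1E and -0.90 (adjusted p = 0.379) for sgP1J. HNF4A is therefore not among the 45 genes. The spread of the other AsPC-1 groups enters these tests, and HNF4A ran from 3.19 to 13.6 CPM across the sgDual libraries. With only the sgP1 and sgNC libraries in the same kind of fit, its adjusted p was 0.203, still not past the threshold. In RNA from a whole culture, fewer cells expressing a gene and less of its RNA per cell cannot be told apart. The counts are per gene and add P1 and P2 transcripts together, so the level of P1 RNA itself was not measured here. With sgP2 the gene-level values were 76.7 to 93.9 CPM and with sgDual 3.19 to 13.6 CPM, and the direct difference between sgP1 and sgP2 was 0.58 (SE 0.31, adjusted p = 0.343). HNF4G, the paralog of HNF4A, gave -0.01 (adjusted p = 0.996). None of 15 tested genes within 500 kb of HNF4A passed the threshold for sgP1, sgP1E or sgP1J, the lowest adjusted p for sgP1 being 0.382.

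Total counts were 30778972 to 50662077 in the sgP1 libraries, sgP1E replicate 1 being the deepest, and 31394018 and 32112345 in the sgNC libraries. Of the marker lists, 10 of 10 epithelial genes had a mean over the 6 libraries of at least 1 CPM, with ESRP1 at 0.908 to 17.5 CPM across the sgP1 libraries. Their summed level was 8855 to 18820 CPM with sgP1 and 14765 to 14794 with sgNC. Marker values in this paragraph were scaled by total counts alone, without TMM. Of the fibroblast or mesenchymal list 3 of 10 reached that mean (VIM, ZEB1 and LUM, while COL1A1 did not), and of the immune list 3 of 8 (LYZ, CD68 and CD14, with CD3E, MS4A1 and NKG7 at 0). No endothelial, acinar or islet marker did, although SYP reached 1.14 CPM in an sgP1 library and 1.34 in an sgNC library.

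The genes that moved with P1 repression were few. The 45 genes are 0.265% of those tested, with 17 higher (0.1%) and 28 lower (0.165%). All 45 genes past the threshold lay on the same side with both guides. Because the guides counted as replicates in that test, a gene with its guides on opposite sides could hardly pass. Nothing about agreement of the guides is read from this. Among them 23 changed by at least 1 on the log2 scale, 9 higher and 14 lower, and the smallest change was 0.36. Their mean level ran from 0.765 to 510.1 CPM with a median of 16.1, and 12 were under 5 CPM. In all 45 the sgP1 libraries lay outside both sgNC libraries, which over all tested genes held for 7.5% above and 6.92% below. The same libraries chose the members, so this separation largely follows from the rule and is no further evidence. At an unadjusted p under 0.05 there were 1516 genes. The count depends on the 2 sgNC libraries: without sgNC replicate 1 it was 7 and without sgNC replicate 2 it was 1. It was 23 without sgP1E replicate 2, 144 without sgP1J replicate 1 and 242 with DESeq2, and REG4 alone passed the threshold under all 15 alternative settings. With total counts in place of TMM it was 48, with 23 higher and 25 lower. At the edge of the rule, TMEM9 (adjusted p = 0.0408) and KCNMB4 (0.0459) were just inside, and TGFB2 (0.0505, log2 fold change 0.98) and SYNGR2 (0.0507, 0.55) just outside.

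The guides also differed from each other. With sgP1E 1464 genes (8.62%) differed from sgNC, 4.81% higher and 3.8% lower. With sgP1J 517 (3.04%) did, 1.26% higher and 1.78% lower, and 2467 (14.5%) differed between the guides, 7.82% higher and 6.7% lower with sgP1E. Both guides passed the threshold at 208 genes. At 146 of them (0.859% of tested) the direction was the same, 75 higher (0.441%) and 71 lower (0.418%), and at 62 it was opposite. The 146 are 9.97% of the sgP1E calls and 28.2% of the sgP1J calls, and both comparisons use the same sgNC libraries. Without sgNC replicate 1, sgNC replicate 2 or sgP1J replicate 2, the count was 56, 60 or 72. The 146 include 44 of the 45 genes. The exception is MYH14, where sgP1J alone had an adjusted p of 0.0645. With the replicate number as a block in the fit, 127 genes met the rule in place of 45 and 436 in place of 146.

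**Figure D1:**
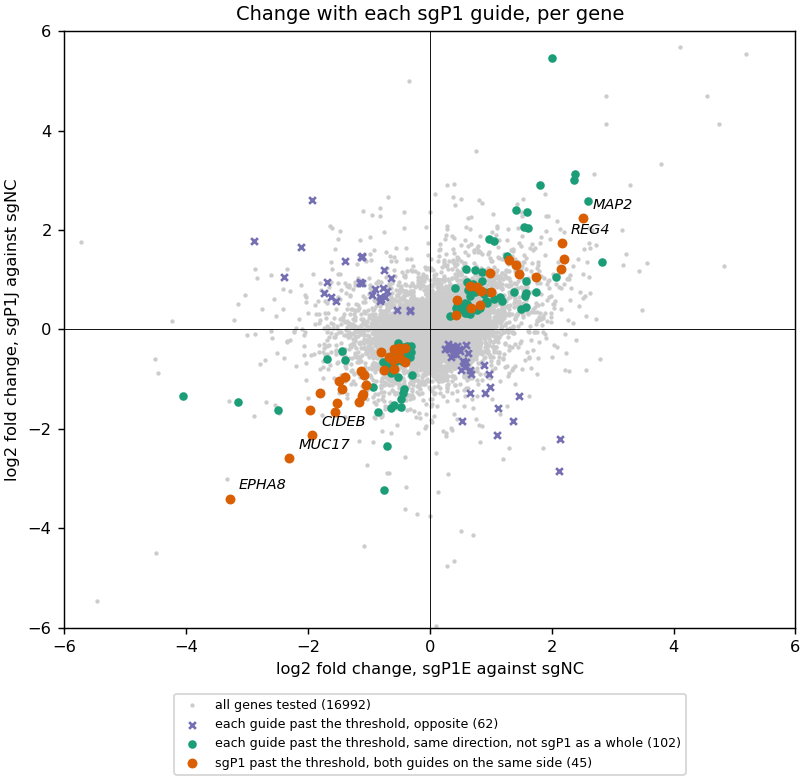
Log2 fold change of each of 16992 genes against sgNC with sgP1E (horizontal axis) and with sgP1J (vertical axis). Orange points are the 45 genes kept, green points the other 102 genes past the threshold with each guide in the same direction, and purple crosses the 62 past it in opposite directions. Axes end at 6 in either direction, which leaves out 2 unmarked genes.

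Of the 45 genes, 7 also differed between the guides past the threshold, where 14.5% of all tested genes did. The count is near that share, so nothing particular to the members is read from it. REG4, KCNMB4, CACHD1 and DENND2B were among those higher with sgP1E than with sgP1J, and MICALL2 was lower. In each of these 7 the change from sgNC was larger with sgP1E. Over all 45, the change was larger with sgP1E in 26. The share over all tested genes was not counted for this, so nothing is read from it. HNF4A itself was lower with sgP1J, where its difference between the guides was not past the threshold (adjusted p = 0.627).

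Of the mucin list 2 of 11 tested genes fell, and of the brush border list 1 of 22, where 0.165% of all genes were lower. MUC17, a transmembrane mucin of the intestinal glycocalyx, was at 899.6 and 823.1 CPM with sgNC, 175.7 and 171.7 with sgP1E, and 179.7 and 108.4 with sgP1J. All 4 sgP1 libraries lay far below both controls, and sgP1J replicate 2 was the lowest. The change was -2.44 (SE 0.31, adjusted p = 0.0103) to 18.4% of sgNC. MUC3A, a mucin of the same kind, fell by 0.48 (SE 0.08, adjusted p = 0.0255), from 35.5 ± 0.246 CPM (SD, n = 2) to 25.5 ± 2.62 (SD, n = 4). Near-identical copies may share its reads, so its value is uncertain.

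MYO1A, the myosin that ties the actin core of the microvillus to its membrane, was at 129.8 and 147.0 CPM with sgNC. It was at 79.1 and 85.0 with sgP1E and at 78.0 and 79.3 with sgP1J, all below both controls and close to each other. It fell by 0.78 (SE 0.15, adjusted p = 0.0378). COBL, an actin nucleator of microvilli, fell by 0.43 (adjusted p = 0.037), and GPA33, a surface glycoprotein of the intestinal epithelium, fell by 1.19 (adjusted p = 0.0258). GPA33 was at 115.5 and 141.0 CPM with sgNC and between 43.5 and 68.0 with sgP1, with no overlap. MYH14, a non-muscle myosin heavy chain, fell by 1.24 (adjusted p = 0.037) and was the most variable of these, at 35.9 to 79.7 CPM across the sgP1 libraries against 121.2 and 154.4.

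Of 17 tested genes of the lipid packaging list, 3 fell (0.165% of all genes were lower). CIDEB, a lipid droplet protein that takes part in loading lipid onto lipoproteins, was at 9.16 and 10.4 CPM with sgNC, 2.24 and 2.95 with sgP1E, and 1.98 and 2.52 with sgP1J. Every sgP1 library was below both controls, with the guides close to each other, and the change was -2.02 (SE 0.24, adjusted p = 0.00247). All 3198 exonic bases of CIDEB (chr14:24305096-24311430, minus strand) are shared with LTB4R2 and NOP9 on the other strand, so its level is uncertain where strand was not used in counting. NOP9 gave -0.21 (adjusted p = 0.655) and LTB4R2 -0.22 (SE 0.20). CIDEC, which fuses lipid droplets, was at 26.8 and 28.2 CPM with sgNC and at 13.1, 12.2, 11.1 and 10.7 with sgP1. These values do not overlap and vary little, and the change was -1.22 (SE 0.14, adjusted p = 0.00145). CREB3L3, a membrane-bound transcription factor of liver and gut that controls lipid genes, was at 267.6 and 311.8 CPM with sgNC and between 168.8 and 214.5 with sgP1. It fell by 0.61 (SE 0.11, adjusted p = 0.0255).

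Among enzymes and transporters, SLCO2B1, an uptake transporter of organic anions, was at 2.73 and 3.72 CPM with sgNC and between 0.542 and 1.49 with sgP1, and fell by 1.80 (SE 0.33, adjusted p = 0.0341). KHK, the enzyme that starts fructose breakdown, fell by 1.08 (adjusted p = 0.037), and 23.8% of its exonic bases are shared with CGREF1 on the other strand. HSD11B2, which inactivates cortisol, fell by 0.97 (adjusted p = 0.037). AGMO, which cleaves ether lipids, fell by 1.29 (adjusted p = 0.0401) from a level near 1 CPM. CHST2, a sulfotransferase of cell-surface glycans, fell by 1.51 (adjusted p = 0.0154), from 12.4 and 9.99 CPM to between 2.68 and 4.88.

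Among receptors and ligands the lowest ratio was that of EPHA8, an ephrin receptor kinase. It was at 1.33 and 1.99 CPM with sgNC (42 and 62 counts), 0.137 and 0.211 with sgP1E and 0.0876 and 0.226 with sgP1J (3 to 7 counts). The change was -3.33 (SE 0.39, adjusted p = 0.00158), and its size rests on those few counts. EFNA2, an ephrin ligand, was at 37.0 and 39.1 CPM with sgNC and between 15.9 and 21.1 with sgP1, a fall by 1.00 (SE 0.11, adjusted p = 0.00145). ADRA1B, the alpha-1B adrenergic receptor, fell by 1.32 (adjusted p = 0.0115). ANO3 of the anoctamin family fell to 32.5% of sgNC (adjusted p = 0.0131), GOLGA7B, a partner of palmitoyltransferases, to 34.9% (adjusted p = 0.0124) and PALM, a membrane phosphoprotein, from 4.13 to 1.86 CPM (adjusted p = 0.0234). EPB41L4B, TRIM14, SEH1L, MPP1, SNORC, KCTD3, MICALL2 and TCEAL1 fell by less, with changes of -0.40 to -0.69.

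The rises were led in certainty by REG4, a secreted lectin of gut and pancreatic epithelium. It was at 7.79 and 6.94 CPM with sgNC, 30.7 and 35.4 with sgP1E, and 24.5 and 24.4 with sgP1J. Every sgP1 library was above both controls, and sgP1E stood above sgP1J. The change was 1.97 (SE 0.16, adjusted p = 7e-05), the lowest p of all tested genes. MAP2, a microtubule-associated protein of neurons, had the largest rise, 2.40 (SE 0.42, adjusted p = 0.0258), from 5 and 10 counts with sgNC to 36 to 59 counts with sgP1.

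**Figure D2:**
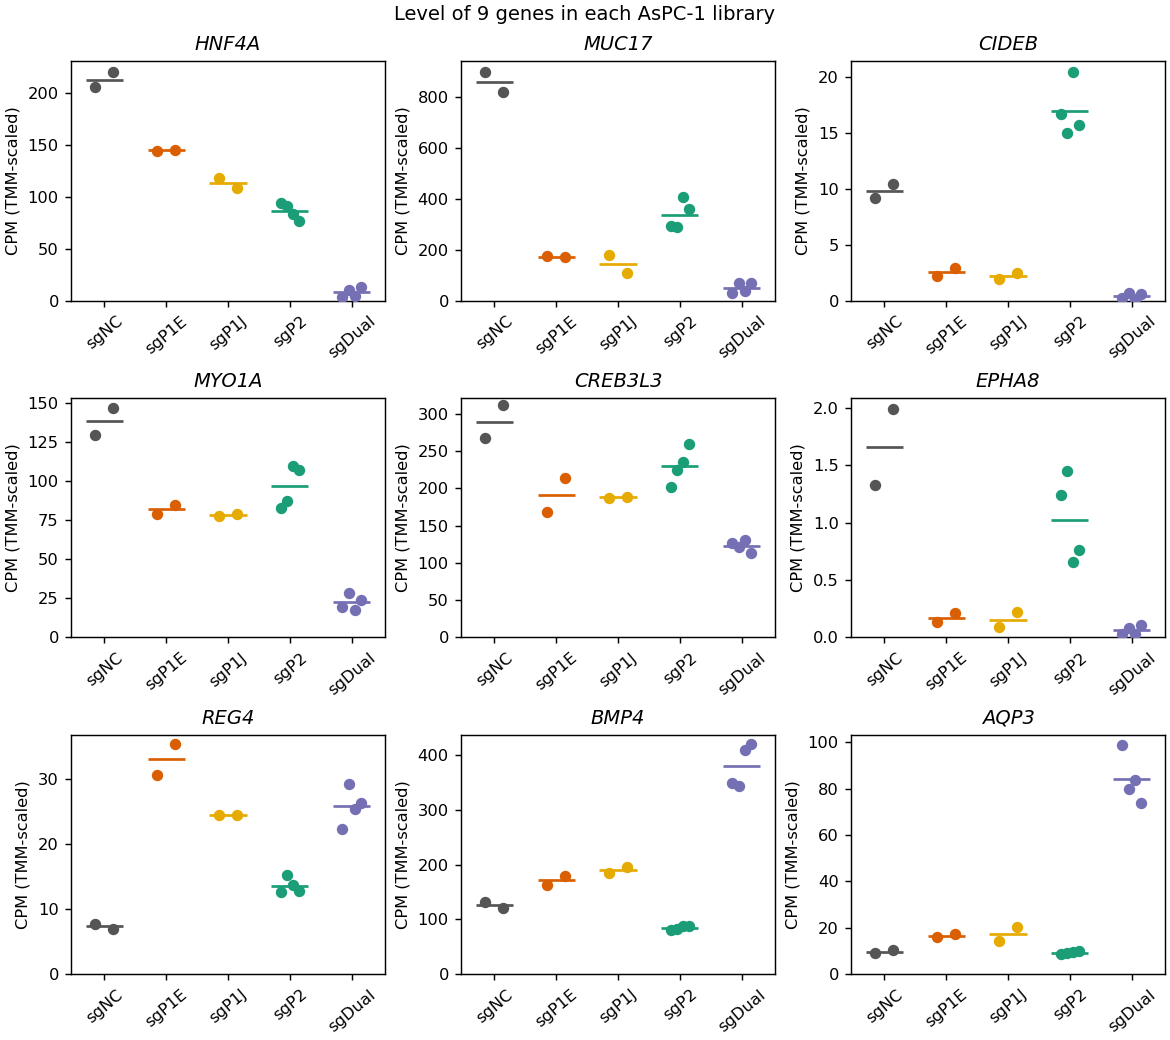
TMM-scaled CPM of HNF4A and 8 of the genes kept in each AsPC-1 library, one point a library, with the group mean as a bar. MUC17, CIDEB, MYO1A, CREB3L3 and EPHA8 lie below both sgNC points with each sgP1 guide and REG4, BMP4 and AQP3 lie above them, while CIDEB is higher with sgP2 and BMP4 lower.

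The other rises included secreted and signalling proteins, named here one by one and not tested as a group. NTN4, the laminin-like netrin 4, was at 2.66 and 2.06 CPM with sgNC and between 5.19 and 6.53 with sgP1, a rise of 1.35 (SE 0.17, adjusted p = 0.00272). BMP4, a ligand of the TGF-beta superfamily, was at 131.3 and 120.8 CPM with sgNC, 162.7 and 179.7 with sgP1E and 185.4 and 195.8 with sgP1J. It rose by 0.52 (SE 0.10, adjusted p = 0.037) with no overlap. GNG11, a G protein gamma subunit, rose by 1.06 (adjusted p = 0.00736), from 28.3 and 23.8 CPM to between 47.6 and 61.3.

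Among channels and membrane proteins, AQP3, a channel for water and glycerol, was at 9.12 and 10.3 CPM with sgNC and between 14.5 and 20.5 with sgP1, a rise of 0.81 (SE 0.14, adjusted p = 0.0238). KCNMB4, a subunit of calcium-activated potassium channels, rose by 1.77 (adjusted p = 0.0459) and CACHD1, a modulator of calcium channels, by 1.45 (adjusted p = 0.037). SMIM3, a small membrane protein, rose by 1.37 (adjusted p = 0.0131) and DENND2B, an exchange factor of Rab proteins, by 1.30 (adjusted p = 0.037). TMEM132A, the homeobox gene PRRX2, the deubiquitinase OTUD1, TMEM9 and CPNE2 rose by 0.36 to 0.88.

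The promoters of the members were searched for CAAAGNNCA, the pattern around the HNF4 core, and for CAAAGTCCA, a form that HNF4A is known to bind, on both strands of the RefSeq windows of 250 bases before to 50 after each start. Windows were found for 36 of the 45 genes. The wider pattern was in 6.44% of all genes with a window and 5.39% of the tested genes, and in 4 of 23 genes that fell and 2 of 13 that rose. CAAAGTCCA was in 0.472% of all genes and 0.493% of tested genes, and in 3 genes that fell (CIDEB, MYO1A and SLCO2B1) and 1 that rose (DENND2B). The shared letters lie 55, 30 and 69 bases before the start in CIDEB, MYO1A and SLCO2B1, and 58 in DENND2B. These 4 windows are shown because they hold the exact form, and that of MUC17 because it holds the wider pattern and fell to 18.4% of sgNC. Each is the 250 bases before the start on the gene's strand in GRCh38.p14, with the match in capitals, written TGGACTTTG or TGCCCTTTG where it is on the other strand. They are CIDEB chr14:24307978-24308227 (minus), MYO1A chr12:57050130-57050379 (minus), SLCO2B1 chr11:75159582-75159831 (plus), DENND2B chr11:8794845-8795094 (minus) and MUC17 chr7:101019831-101020080 (plus). A match is a description of the letters and not of binding.
CIDEB: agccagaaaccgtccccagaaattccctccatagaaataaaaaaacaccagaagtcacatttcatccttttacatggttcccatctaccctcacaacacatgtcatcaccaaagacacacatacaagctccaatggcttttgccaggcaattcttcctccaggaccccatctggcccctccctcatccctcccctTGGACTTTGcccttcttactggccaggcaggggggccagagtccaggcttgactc
MYO1A: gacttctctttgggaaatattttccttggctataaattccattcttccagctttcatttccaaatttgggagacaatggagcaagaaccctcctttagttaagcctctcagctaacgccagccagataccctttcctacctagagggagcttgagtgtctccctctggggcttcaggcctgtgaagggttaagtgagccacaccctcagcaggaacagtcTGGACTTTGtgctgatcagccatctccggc
SLCO2B1: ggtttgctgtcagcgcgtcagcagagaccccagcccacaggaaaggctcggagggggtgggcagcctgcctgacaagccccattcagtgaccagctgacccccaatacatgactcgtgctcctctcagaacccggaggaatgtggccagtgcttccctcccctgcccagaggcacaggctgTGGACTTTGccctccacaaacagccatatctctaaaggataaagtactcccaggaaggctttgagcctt
DENND2B: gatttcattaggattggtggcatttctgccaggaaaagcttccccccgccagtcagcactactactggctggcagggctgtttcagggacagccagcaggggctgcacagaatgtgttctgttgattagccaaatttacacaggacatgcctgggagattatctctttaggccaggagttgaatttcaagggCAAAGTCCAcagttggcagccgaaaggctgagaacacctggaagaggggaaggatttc
MUC17: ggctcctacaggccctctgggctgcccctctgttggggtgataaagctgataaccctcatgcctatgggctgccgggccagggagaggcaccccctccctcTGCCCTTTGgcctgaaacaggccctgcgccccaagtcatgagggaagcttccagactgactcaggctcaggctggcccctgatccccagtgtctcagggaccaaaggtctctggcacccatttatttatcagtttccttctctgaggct

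The 45 genes lay on 16 chromosomes in GENCODE v29 (GRCh38), none on chromosome 20, and all were protein coding. Of them 18 shared exonic bases with another gene, and for 2, CIDEB among them, this was over 25% of the exonic length.

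How the members behaved with the other guides was read from the same AsPC-1 table. The sgP2 and sgDual comparisons with sgNC use the same 2 sgNC libraries that chose the members. This favours changes in the same direction as with sgP1, so their values are given side by side as a description. The direct tests of sgP1 against sgP2 and sgDual use the same sgP1 libraries that chose the members, which favours differences in the direction of the sgP1 change, so their counts are a description. With sgP2, 11 of the 28 falls were lower than sgNC and none higher, and 11 of the 17 rises were higher and 1, BMP4, lower. Over all genes 3.42% differed, 1.66% higher and 1.76% lower. With sgDual, 25 of the 28 falls were lower and 16 of the 17 rises higher, where 35.6% of all genes differed, 17.8% in each direction. Directly, sgP1 differed from sgP2 at 18 of the 45 genes (4.3% of all tested, 2.13% higher and 2.17% lower with sgP1). The 12 falls lower with sgP1 than with sgP2 were EPHA8, MUC17, CIDEB, SLCO2B1, CHST2, ADRA1B, AGMO, CIDEC, MPP1, SEH1L, TRIM14 and EPB41L4B. The 6 rises higher with sgP1 included REG4, BMP4, AQP3, OTUD1 and TMEM132A.

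At CIDEB and BMP4, the sgP1 and sgP2 libraries lay on opposite sides of both sgNC libraries. CIDEB was at 15.03 to 20.41 CPM in the 4 sgP2 libraries, above both sgNC libraries, and at 0.179 to 0.664 with sgDual. Its direct difference between sgP1 and sgP2 was -2.81 (SE 0.22, adjusted p = 7.77e-06). BMP4 was at 80.5 to 87.9 CPM with sgP2, below both sgNC libraries, and at 344.2 to 420.6 with sgDual, and sgP1 was higher than sgP2 by 1.09 (SE 0.08, adjusted p = 3.54e-06). AQP3 was at 8.55 to 9.93 CPM with sgP2, within or just below the sgNC values, and at 74.0 to 98.8 with sgDual. REG4 was at 12.6 to 15.3 CPM with sgP2 and 22.3 to 29.2 with sgDual, and was higher with sgP1 than with sgP2 by 1.08 (SE 0.12, adjusted p = 0.000291). For the other 27 genes no difference between sgP1 and sgP2 passed the threshold, which does not show that the guides act alike. MYO1A, for example, gave -0.27 (SE 0.12, adjusted p = 0.251).

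**Figure D3:**
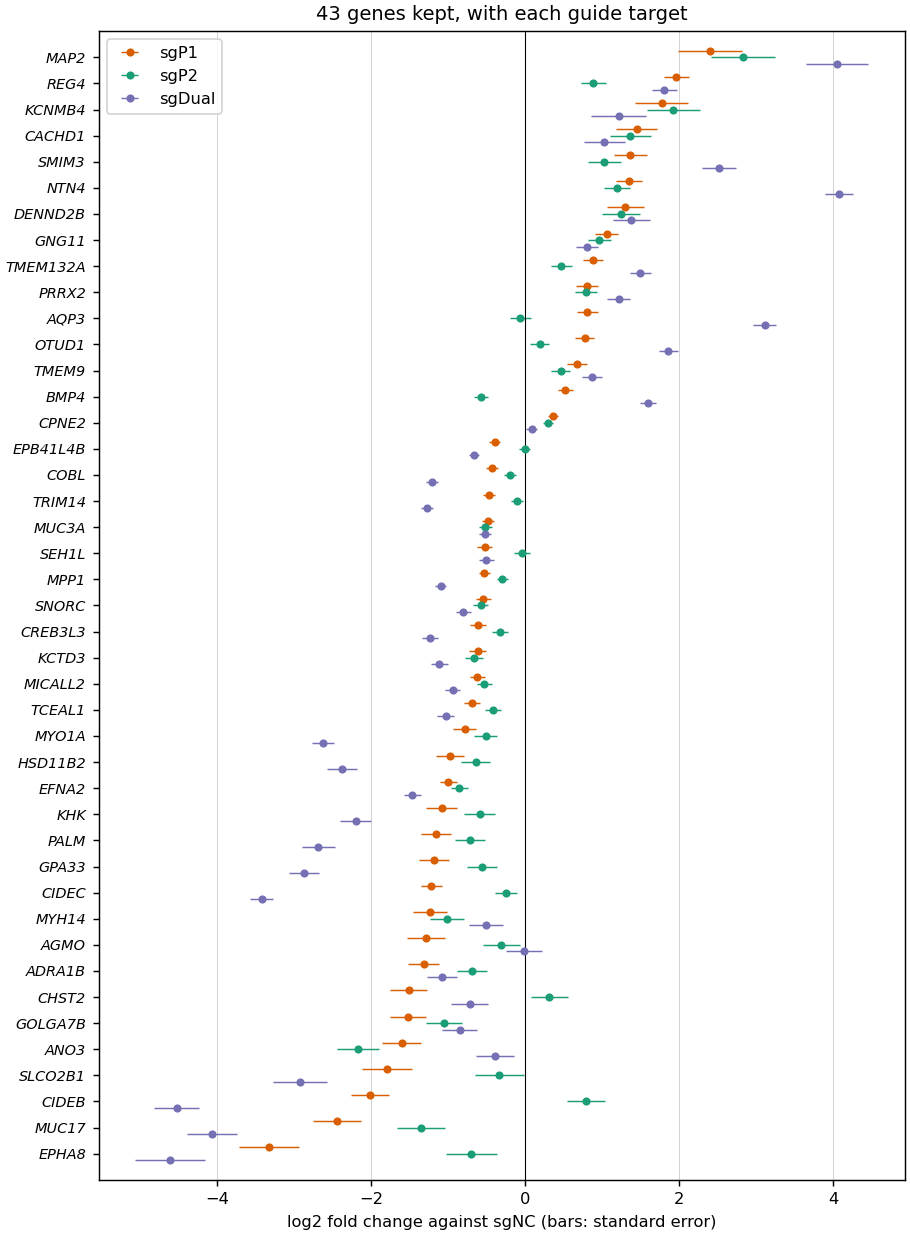
Log2 fold change against sgNC (horizontal axis, bars for 1 standard error) of 43 of the 45 genes kept, with sgP1, sgP2 and sgDual, which share the same sgNC libraries. For CIDEB and BMP4 the sgP2 point lies on the other side of 0 from sgP1, and for most falls the sgDual point lies further left.

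Against sgDual, sgP1 differed at 34 of the 45 genes (38.3% of all tested, 19.7% higher and 18.6% lower with sgP1). Of the falls 19 were less low with sgP1 than with sgDual and 5 were lower, namely MYH14, AGMO, CHST2, GOLGA7B and ANO3. AGMO stood at 0.533 ± 0.0803 CPM (SD, n = 4) with sgP1 and 1.29 ± 0.212 (SD, n = 4) with sgDual, beside 1.31 ± 0.193 (SD, n = 2) with sgNC. Of the rises 9 were less high with sgP1 than with sgDual, and CPNE2 was higher. NTN4 was at 38.8 to 43.2 CPM in the sgDual libraries, against at most 6.53 with sgP1.

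The reverse manipulation, with separate libraries, was available in the lines with induced P1-a2. HNF4A rose there from 0.24 and 0.058 CPM to 10.7 and 12.98 in Panc10.05, and from 1.08 and 0.464 CPM to 9.76 and 11.6 in BxPC3. Over all genes tested, 62% differed in Panc10.05, 31.5% higher and 30.5% lower, and 32% in BxPC3, 17.1% higher and 14.9% lower. Of the falls, 19 of 25 tested were higher under P1-a2 and 2 lower in Panc10.05, and 16 of 26 were higher and 3 lower in BxPC3. These counts include falls that passed the filter on low counts only through libraries other than NC, which could hardly be found lower, so nothing is read from them. Among genes that passed that filter on the NC libraries alone, 11 of 17 falls were higher and 2 lower in Panc10.05, where 30.2% of such genes were higher and 34.1% lower. In BxPC3, 9 of 19 such falls were higher and 3 lower, where 16.8% of such genes were higher and 16.7% lower. The median change of these falls was 0.95 in Panc10.05 and 0.26 in BxPC3, beside -0.03 over all such genes in each line. Of the rises that passed on NC alone, 6 of 13 were lower and 3 higher in Panc10.05 (median -0.29), and 7 of 15 were lower and none higher in BxPC3 (median -0.37). Genes below the filter on low counts in these lines, such as EPHA8 and REG4, were not tested there.

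**Figure D4:**
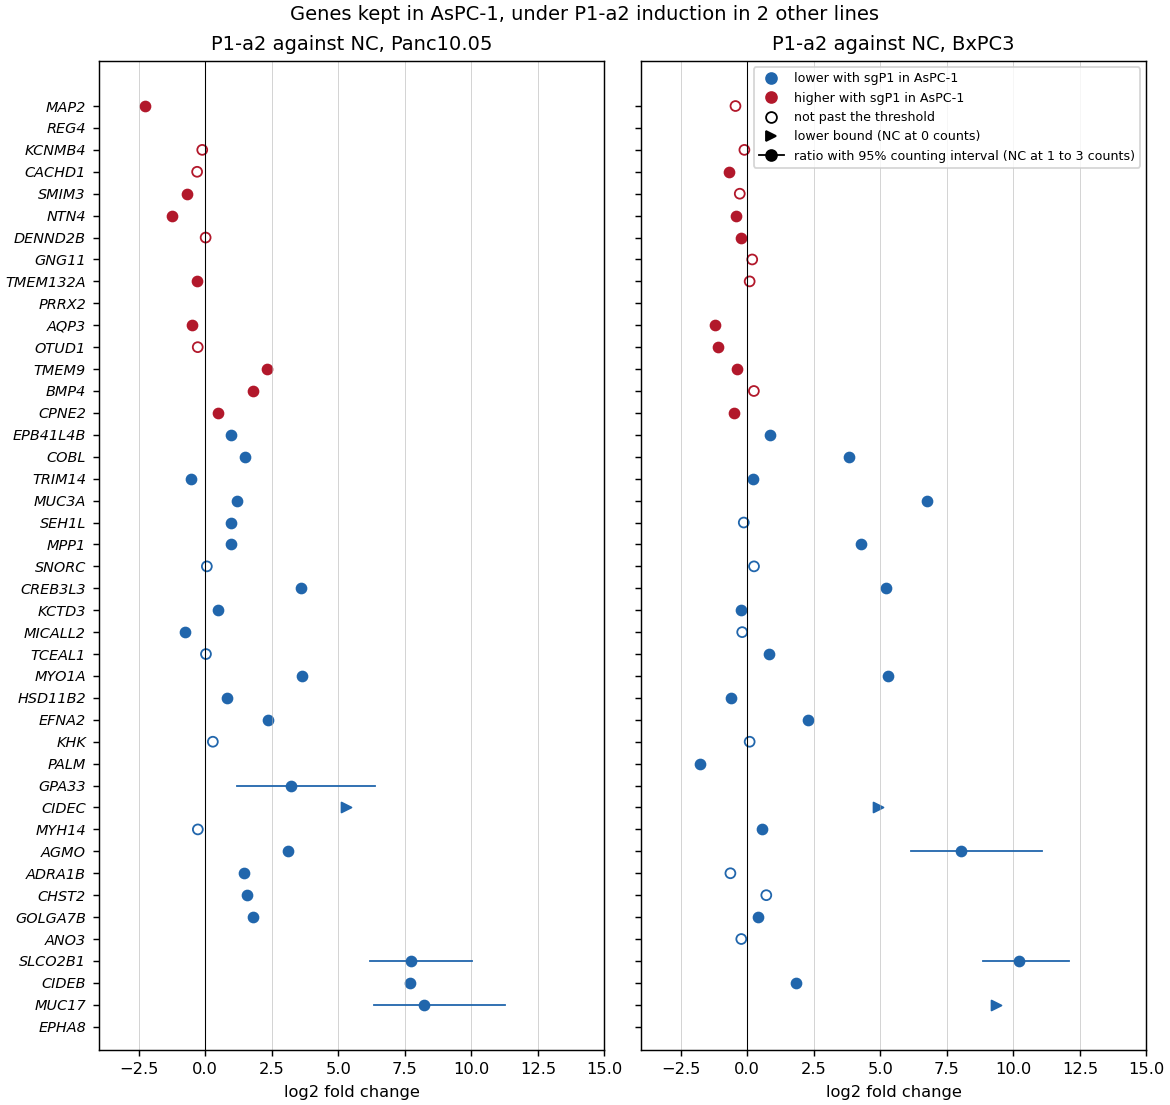
Log2 fold change of P1-a2 against NC (horizontal axis) in Panc10.05 and BxPC3 for 43 of the 45 genes kept in AsPC-1, blue for falls and red for rises with sgP1, open where not past the threshold and blank where not tested. Triangles are lower bounds where both NC libraries were at 0, bars are 95% counting intervals where NC held 1 to 3 counts, and blue points right of 0 include genes that passed the filter on low counts only through libraries other than NC.

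Of 24 falls tested in both induced lines, 13 were higher in both and none lower in both, and of 14 rises 2 were lower in both and none higher in both. Over all 15476 genes tested in both lines, 10.2% were higher in both and 8.85% lower in both. The 13 include falls that passed the filter on low counts only through libraries other than NC. Such falls could hardly be found lower, so nothing is read from that count beside these shares. Among the 15 falls that passed the filter on NC alone in both lines, 5 were higher in both and 0 lower in both. The share over all genes passing it in both lines was not counted, so nothing is read from the 5 of 15 either. The 13 falls were MUC17, MUC3A, MYO1A, COBL, CIDEB, CIDEC, CREB3L3, SLCO2B1, EFNA2, MPP1, EPB41L4B, GOLGA7B and AGMO, and the 2 rises were NTN4 and AQP3. MUC17 went from 0.048 and 0 CPM to 8.68 and 6.98 in Panc10.05, a ratio of 295.4 (95% exact counting interval 81.5 to 2444). In BxPC3 it went from 0 in both NC libraries to 53.0 and 74.3 CPM, at least 658-fold higher against a floor of 3 counts a library. CIDEC was at 0 in all 4 NC libraries and rose to 2.98 and 3.22 CPM in Panc10.05 and 2.42 and 3.49 in BxPC3, at least 39.0-fold and 30.5-fold higher. These intervals and floors cover counting error only. With NC at or near 0, MUC17 and CIDEC could hardly be found lower, so their direction here is a description and not a test.

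CIDEB rose by 7.69 (SE 0.23) in Panc10.05 and by 1.83 (SE 0.11) in BxPC3, where its NC level was already 8.14 and 9.40 CPM. MYO1A rose by 3.63 (SE 0.34) and 5.28 (SE 0.28), and CREB3L3 by 3.58 (SE 0.32) and 5.24 (SE 0.46). AQP3 fell by 0.51 (SE 0.09) in Panc10.05 and by 1.19 (SE 0.09) in BxPC3, and NTN4 by 1.26 (SE 0.08) and 0.42 (SE 0.07). The doxycycline doses and the control constructs of the 2 lines differ, so their sizes are not compared with each other. Of the falls, TRIM14 and MICALL2 were lower in Panc10.05 and KCTD3, HSD11B2 and PALM in BxPC3.

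Gene lists of pancreatic and enterocyte biology were counted next. Over 17 lists, 431 of 556 genes were tested, 12 lists had no gene past the threshold, and 7 listed genes were among the 45 (0.265% of all genes tested). List medians ran from -0.23 to 0.38, beside 0.01 over all genes. Of the brush border list 1 of 22 fell (MYO1A) and none rose, with a median of -0.23. With each guide past the threshold, CDHR2 (-0.65 with sgP1E and -0.83 with sgP1J) and EPS8L3 (-0.33 and -0.56), which organise microvilli, were lower too. DPP4 of the same list was also past it with each guide, but in opposite directions (0.25 with sgP1E and -0.39 with sgP1J). By guide, 8 of the 22 were lower with sgP1J and none higher, where 1.78% of all genes were lower and 1.26% higher. With sgP1E 3 were lower and 2 higher, where 3.8% of all genes were lower and 4.81% higher. VIL1, the villin of the microvillus core, was at 85.2 ± 43.0 CPM (SD, n = 4) against 88.5 ± 26.6 (SD, n = 2), and its guides lay on opposite sides of sgNC.

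Of the list of apolipoproteins and lipid packaging, 3 of 17 fell (0.165% of all genes; CIDEB, CIDEC and CREB3L3), none rose, and the median was -0.20. MOGAT3, which makes diacylglycerol, was lower with each guide, by -0.64 with sgP1E and -1.58 with sgP1J. Of the mucin list 2 of 11 fell (MUC17 and MUC3A) while its median was 0.32. MUC13, another transmembrane mucin of the gut, was higher with each guide (0.89 and 0.71) at 259 ± 39.9 CPM (SD, n = 4) against 149 ± 23.8 (SD, n = 2), with an adjusted p of 0.157 for sgP1 as a whole. Of the classical secretory and surface list 1 of 23 rose (REG4). AGR2, a disulfide isomerase of mucin-secreting cells, and S100P were higher with each guide but not for sgP1 as a whole (adjusted p = 0.193 and 0.243). CREB3L3 was also the 1 call of 21 endoderm transcription factors.

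**Figure D5:**
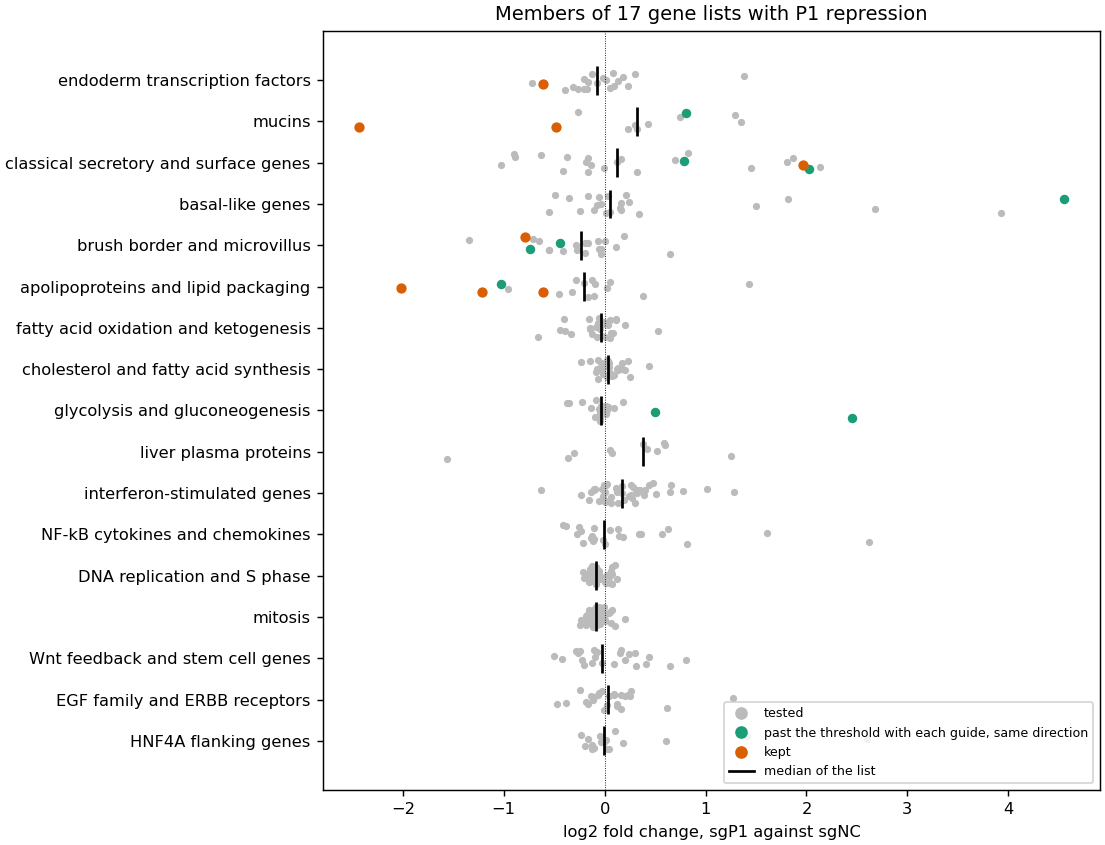
Log2 fold change of sgP1 against sgNC (horizontal axis) for the tested members of 17 gene lists, with the list median as a bar. Members among the 45 genes are orange and those past the threshold with each guide are green, and most members of every list are grey.

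No gene passed the threshold for sgP1 in the lists of basal-like genes (23 tested), fatty acid oxidation (28), cholesterol and fatty acid synthesis (30), glycolysis (24), liver plasma proteins (11), interferon-stimulated genes (45), NF-kB cytokines (24), DNA replication (43), mitosis (48), Wnt feedback (23), EGF family (26) or genes flanking HNF4A (17). Over all genes tested 0.265% passed, so the absence of a call does not show that these lists did not respond. Members of several of these lists passed with a single guide. In the basal-like list KRT5, a keratin of basal epithelium, was higher with each guide. It had 2 and 3 counts with sgNC, and the ratio was 4.16 (95% exact counting interval 1.58 to 13.8) with sgP1E and 46.1 (19.5 to 143.4) with sgP1J. In the glycolysis list SLC2A3, a glucose transporter, was higher by 1.80 and 2.91 and ENO2 was also past the threshold with each guide.

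Among the 102 genes that only the guide-by-guide test called, several belong to MHC class II antigen presentation. CD74, the invariant chain, was at 1.17 and 1.32 CPM with sgNC, 6.05 and 6.92 with sgP1E and 10.2 and 9.94 with sgP1J. All sgP1 libraries were above both controls, and the changes were 2.37 (adjusted p = 1.16e-06) and 3.01 (adjusted p = 1.01e-07). CIITA, the transactivator of these genes, rose by 1.62 and 2.05, HLA-DRA by 2.38 and 3.14, HLA-DPA1 by 2.59 and 2.58 and HLA-DRB1 by 1.42 and 2.40. Of 10 class II genes listed after these values were seen, 8 were tested, all 8 had both guides above sgNC (28.7% of all genes did), and these 5 passed with each guide (0.441% of all genes were higher with each). Because the list followed the values, nothing is read from its counts beside these shares. For sgP1 as a whole none of the 5 passed, CD74 having an adjusted p of 0.503. The spread of the other AsPC-1 groups enters that test, and CD74 was at 0.541 and 0.525 CPM with sgP2D but 9.35 and 8.25 with sgP2G. It was 4.85 and 4.97 with sgDual2 and 12.1 and 13.9 with sgDual3, so its level varied by guide under every target. Whether this variation belongs to the guides or to the cells that carry them cannot be told apart.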

How the data were processed

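Per the labels' protocols, poly(A) RNA was turned into strand-marking libraries and sequenced in pairs on a NovaSeq. The deposited tables hold whole-number counts per Ensembl gene for each library, as the authors counted them. The submitters' processing notes name cutadapt 1.16, STAR 2.7.9a, featureCounts 1.6.3, DESeq2 1.36.0 and GRCh38, with no role or order. The annotation release and the strand setting are not given in the sources used here. 

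From the counts, genes were filtered with filterByExpr, scaled by TMM and tested with edgeR 4.0.16 (limma 3.58.1, R 4.3.3) by the quasi-likelihood F test with Benjamini-Hochberg adjustment over all genes tested. All 14 AsPC-1 libraries were fitted in 4 groups by target (10 residual degrees of freedom), and in 7 groups by guide for each sgP1 guide. Panc10.05 and BxPC3 were fitted separately. DESeq2 1.42.0 was an alternative, beside other scalings, no filter, fewer libraries and a replicate block. The filter on the NC libraries alone was chosen after seeing the data. Same-numbered libraries deviated together with r of 0.29 to 0.34 in the 3 pairs among sgP1E, sgP1J and sgNC, and above 0.1 in 15 of the 21 guide pairs of all AsPC-1 libraries. Of the 62754 genes in the table, 99.9% had a symbol. The rule for named genes took HNF4A, HNF4G, the 15 largest rises and 15 largest falls among members with a mean of at least 1 CPM, up to the 10 largest in each direction among genes called with each guide, up to 4 members of each list by size of change, and 2 genes on either side of the threshold. Of the 45 members, 2 are counted but not reported here by name. The remaining members, other list members called with each guide or as background, HLA-DRB1, NOP9 and LTB4R2 were named after their values were seen. Members and lists were chosen with earlier results of these data known. Positions are from GENCODE v29 and promoter windows from RefSeq (GRCh38.p14).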

Additional observations from a re-analysis of the deposited data

Results flagged for a closer look

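Within the sgP1 group, 1 library stood apart for 2 of 47 genes examined, by the gap to its nearest neighbour against the group's range (Dixon's 95% critical value for 4 libraries, which chance passes in about 1 group in 20). MUC17 was at 108.4 CPM in sgP1J replicate 2, while the other 3 libraries held 171.7 to 179.7 CPM. SNORC was at 25.7 CPM in sgP1E replicate 1, while the others held 24.2 to 24.4 CPM, all below both sgNC libraries.

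For 7 of the 45 genes, both P1-a2 libraries lay on opposite sides of both NC libraries in the 2 induced lines. The share over all genes was not counted, so nothing particular to the members is read from the number. These differences between lines were not tested, and the lines differ in doxycycline dose. The log2 fold changes in BxPC3 and Panc10.05 were -0.37 and 2.31 for TMEM9, -0.49 and 0.48 for CPNE2, 0.22 and -0.54 for TRIM14, and -0.13 and 0.98 for SEH1L. They were -0.22 and 0.48 for KCTD3, -0.62 and 0.84 for HSD11B2, and -0.63 and 1.47 for ADRA1B.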

How the results depend on the processing

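For sgP1 against sgNC, the number of genes past the threshold with both guides on the same side, 45, depended on the settings. It was 81 with no filter on low counts, 242 with DESeq2, 7 with only the sgP1 and sgNC libraries and 23 when a change of at least 1 on the log2 scale was also required. Fitting 7 groups by guide gave 606 genes past the threshold, of which 551 were genes past the threshold with both sgP1 guides on the same side of sgNC. Leaving out guide sgP1E gave 262 and leaving out guide sgP1J gave 1242. Leaving out single libraries gave 1 (without sgNC replicate 2) to 144 (without sgP1J replicate 1), with 7 without sgNC replicate 1 and 23 without sgP1E replicate 2. The 146 genes past the threshold with each sgP1 guide on its own and in the same direction became 313 with no filter, 56 with only the sgP1 and sgNC libraries, 436 with the replicate block and 36 with the required change, and 56 to 164 when single libraries were left out, the lowest without sgNC replicate 1, with 60 without sgNC replicate 2 and 72 without sgP1J replicate 2. With the replicate block the 45 became 127. Same-numbered libraries deviated together with r of 0.29 to 0.34 in the 3 pairs among sgP1E, sgP1J and sgNC, and with r of 0.08 to 0.34 over all 21 guide pairs, above 0.1 in 15 of them, and the labels do not say what a number marks. RLE scaling gave 46 and total counts 48, with a median shift of 0.04 over all genes. Of 675 pairs of a gene among the 45 and a setting, 489 kept direction and side of the threshold, 186 kept the direction only and 0 reversed. HNF4A passed the threshold in none of 15 settings (adjusted p 0.203 to 0.987). The comparisons of sgP1 with sgP2 and sgDual and the P1-a2 counts at these genes stayed within 1.5 times under every setting run. The cause of these changes was not tested. Depth limits the genes with few counts, such as EPHA8 with 3 to 7 counts in the sgP1 libraries.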
